A study of Thermothelomyces thermophilus with 4 samples.

Results

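The genes described here are 8 genes listed as lytic polysaccharide monooxygenases of the family AA9 (formerly GH61), together with cbdA, which encodes cellobiose dehydrogenase. Their rule names them by gene number, with no threshold on a measured value, and they make up 9 of the 9110 gene models measured in Myceliophthora thermophila (Thermothelomyces thermophilus), a filamentous fungus that grows at high temperature. The genes were chosen with earlier results of these data known. Shares of all genes set beside their counts are therefore a description and not a test. In the deposited table the AA9 genes carry the numbers 85556, 80312, 100518, 92668, 79765, 111088, 46583 and 103537, and cbdA the number 111388, which are the numbers of their MYCTH_ locus tags. The family of the 8 genes is taken from the list that names them. The RefSeq gene table gave all 9 a locus tag and only cbdA a symbol, so the AA9 assignments were not checked against a product description or a protein sequence. Whether the 8 genes are the whole AA9 family of the fungus was not examined.

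Mycelium was grown from spores in shaken cultures at 45 °C, in a defined medium with the straw of oat, triticale, canola or flax as the carbon source. Poly(A) RNA of 1 culture per straw was sequenced, taken after 24 h except for canola, which was taken after 30 h. The effect of canola straw and that of the longer culture cannot be told apart. No replicate culture and no culture on another carbon source was analysed here. The labels used here name no strain. Between 6495371 reads (triticale) and 7977329 reads (canola) were assigned to genes, and each of the 9 genes had between 63 and 27757 reads in every library. Oat and triticale are grasses (cereals) and canola and flax are dicots. The grouping into cereals and dicots rests on the plants, since the labels give none.

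Lytic polysaccharide monooxygenases are secreted copper enzymes that cut polysaccharide chains by oxidation, in the case of AA9 enzymes mostly chains at the surface of crystalline cellulose, and so open it to the hydrolytic cellulases. Their copper has to be reduced by an electron donor before each series of cuts. Cellobiose dehydrogenase is a secreted flavin and heme enzyme that oxidises cellobiose, a product of cellulose breakdown, and its heme domain can hand the electrons to a monooxygenase. Wood- and straw-degrading ascomycetes typically carry many AA9 genes, whose enzymes differ in substrate and in the carbon of the sugar ring that they oxidise.

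All 9 genes were detected on every straw. Of these, 8 were higher on both cereal straws than on both dicot straws, beside 20% of the 8230 genes with a mean of at least 1 FPKM. Levels are given as FPKM, reads per 1000 bases of gene and per 1000000 assigned reads, which allows levels of different genes to be compared per length. The lengths include introns, so FPKM understates a gene by the intron share of its span, in every library alike. The orders of genes and the ratios between genes given here carry this limit, and ratios of 1 gene between straws do not. Intervals are exact Poisson intervals (95%) from the recovered reads and cover counting error only.

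MYCTH_85556 was the most abundant of the AA9 genes on oat, triticale and flax. It reached 3481 FPKM on oat straw (interval 3440 to 3522) and 3527 on triticale straw (3483 to 3571). Canola and flax straw gave 171 (162 to 180) and 212 (203 to 222) FPKM. The cereal libraries lay far above the dicot libraries and within counting error of each other. Among all 9110 models its rank by FPKM was 10 (oat) and 16 (triticale) on the cereals and 589 (canola) and 451 (flax) on the dicots.

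MYCTH_92668 was the least abundant of the 9 genes on every straw, although its level on triticale lay within counting error of that of MYCTH_80312. Oat and triticale gave 159 and 151 FPKM, canola 21.4 (18.2 to 25.1) and flax 8.57 (6.59 to 11.0). On oat it was above 93.3% of all models, on canola above 53.9% and on flax above 30.2%.

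MYCTH_79765 had 473 and 535 FPKM on oat and triticale, and 60.3 and 132 on canola and flax. MYCTH_103537 had 231 and 265 FPKM on the cereals and 65.9 and 59.5 on canola and flax. In both genes the pair of cereal values and the pair of dicot values lay far apart, and triticale was the highest library.

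MYCTH_111088 was at 570 FPKM on oat and 352 on triticale, with canola and flax nearly equal at 158 and 162. MYCTH_80312 had 4 distinct levels, with 306 FPKM on oat, then 157 on triticale, 113 on canola and 35.4 (32.2 to 38.8) on flax. The step of MYCTH_80312 between triticale and canola was its smallest, and its cereal and dicot values did not overlap.

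The 2 remaining AA9 genes varied least between the straws. For MYCTH_100518 the cereal levels were 255 and 259 FPKM (oat and triticale), and the dicot levels 117 and 186 (canola and flax). For MYCTH_46583 they were 373 and 308 FPKM on the cereals and 351 and 140 on the dicots, in the same order. It was the only gene of the 9 whose cereal and dicot values overlapped, with canola between oat and triticale and flax alone being low.

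The cellobiose dehydrogenase gene cbdA had the same order of straws as MYCTH_80312. Its levels were 807 FPKM (795 to 818) on oat, 498 (489 to 508) on triticale, 267 (261 to 273) on canola and 119 (115 to 123) on flax. The order of oat over triticale over canola over flax was shared by 3 of the 9 genes, cbdA, MYCTH_80312 and MYCTH_92668, beside 3.2% of the 8230 genes with a mean of at least 1 FPKM, here called tested genes. For MYCTH_92668 the step from oat to triticale lay within counting error (1.05 times, exact Clopper-Pearson interval 0.958 to 1.15).

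**Figure D1:**
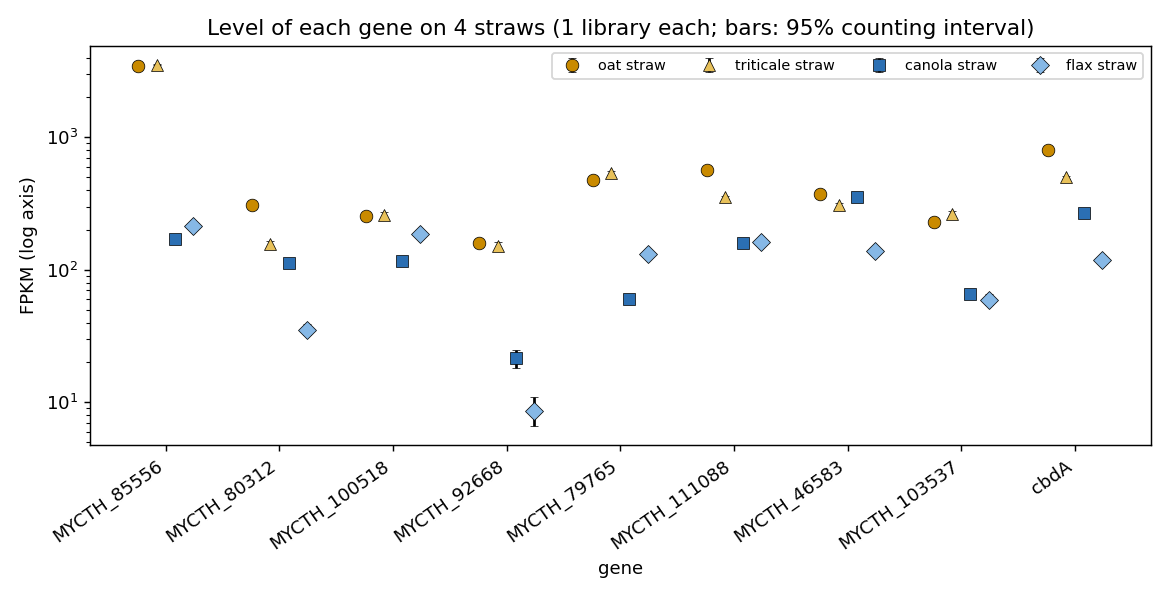
FPKM on a log axis for the 8 AA9 genes and cbdA; each symbol is 1 library and the bars are exact 95% counting intervals. MYCTH_85556 stands at 3481 and 3527 FPKM on the cereal straws and at 171 and 212 on the dicot straws, while MYCTH_46583 is low on flax alone.

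The order of the genes also differed between the straws. On oat it was MYCTH_85556, cbdA, MYCTH_111088, MYCTH_79765, MYCTH_46583, MYCTH_80312, MYCTH_100518, MYCTH_103537 and MYCTH_92668, from high to low, and every step exceeded counting error. On triticale MYCTH_79765 stood just above cbdA, at 1.07 times its level (exact Clopper-Pearson interval 1.03 to 1.11). There MYCTH_103537 and MYCTH_100518, and MYCTH_80312 and MYCTH_92668, were not distinguishable at this depth. On canola MYCTH_46583 led, at 1.32 times the level of cbdA (1.26 to 1.38). MYCTH_85556 came after cbdA there, and neither MYCTH_100518 and MYCTH_80312 nor MYCTH_103537 and MYCTH_79765 could be separated. On flax 5 AA9 genes were above cbdA, in the order MYCTH_85556, MYCTH_100518, MYCTH_111088, MYCTH_46583 and MYCTH_79765, of which the last pair lay within counting error.

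Summed over the 8 AA9 genes, the level was 5848 FPKM on oat and 5554 on triticale straw, while canola gave 1058 and flax 935. In reads the 8 genes took 0.669% of the oat library (exact Clopper-Pearson interval 0.663 to 0.675), 0.619% of triticale (0.613 to 0.625), 0.123% of canola (0.121 to 0.126) and 0.107% of flax (0.105 to 0.109). Much of this difference was MYCTH_85556, which made up 59.5% of the summed FPKM on oat and 63.5% on triticale, but 16.1% on canola straw and 22.7% on flax. Without it the cereal sums were 2366 (oat) and 2027 (triticale) and the dicot sums 888 (canola) and 723 (flax), so the other 7 genes together were also higher on both cereals.

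The mixture of AA9 transcripts was different on each dicot straw. MYCTH_46583 made up 33.2% of the summed FPKM on canola and 14.9% on flax, compared with 6.38% on oat and 5.54% on triticale. MYCTH_100518 made up 11.1% on canola and 19.9% on flax, compared with 4.36% and 4.67% on oat and triticale. MYCTH_80312 made up 10.7% on canola, 5.23% on oat, 3.78% on flax and 2.84% on triticale. These shares are of the 8 listed genes only, and a gene's share can be high because MYCTH_85556 is low.

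**Figure D2:**
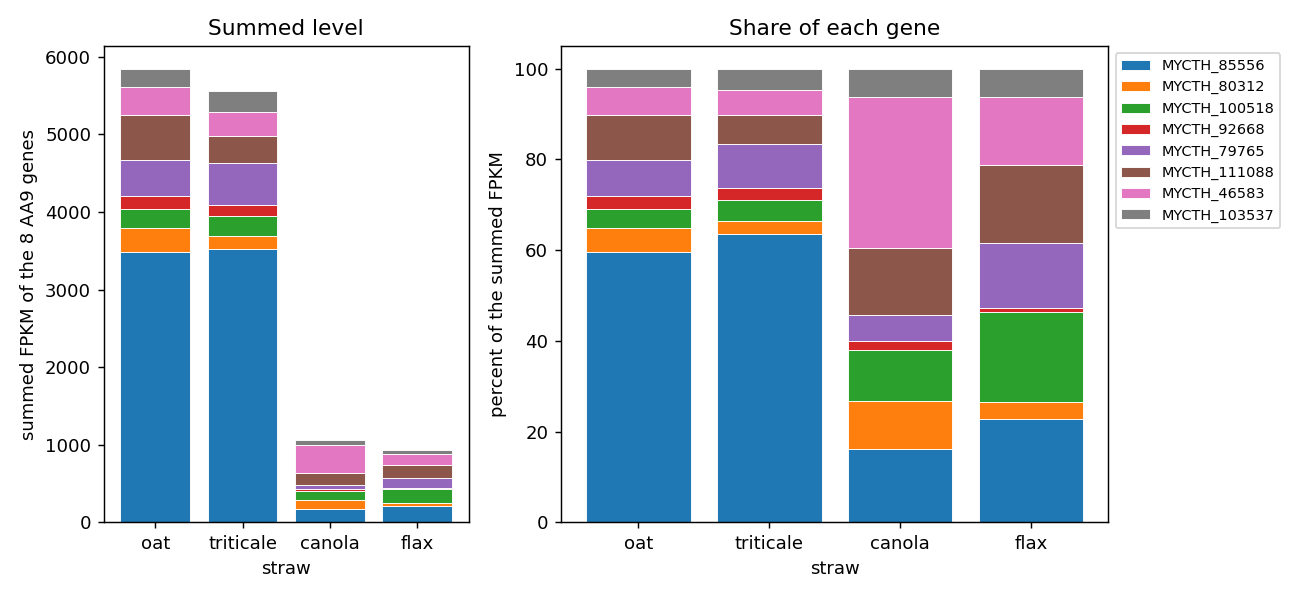
Summed FPKM of the 8 AA9 genes on each straw (left) and the percent of that sum from each gene (right); 1 library per straw. The sum is 5848 and 5554 FPKM on oat and triticale and 1058 and 935 on canola and flax, and MYCTH_85556 gives 59.5% and 63.5% of it on the cereals.

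The summed AA9 level was 7.25 times that of cbdA on oat, 11.2 times on triticale, 3.96 times on canola straw and 7.85 times on flax. The ratio was therefore lowest on canola and highest on triticale, and did not separate cereals from dicots. Without MYCTH_85556 flax had the highest ratio, 6.07, followed by triticale with 4.07, canola with 3.32 and oat with 2.93. These ratios compare transcript levels and not enzyme amounts. The contrast of oat with triticale also carries a trend with gene length, described below, and cbdA is the longest of these genes. With that trend removed, the log2 difference of oat minus triticale fell from 0.69 to 0.25 for cbdA. For MYCTH_85556 it was -0.019 before and -0.037 after. The ratios to cbdA were not recomputed with the trend removed.

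The comparison of cereal with dicot straws asked which of these genes differed in level between the classes of straw. With a single culture per straw and a longer culture on canola, class, straw, culture and time cannot be told apart. For a gene to count as higher on one class, even its lower library of that class had to be 2-fold or more above both libraries of the other, measured as FPKM + 1. By this rule 5 of the 9 genes were higher on cereal straws, beside 1.09% of all tested genes, and 0 of 9 were higher on dicot straws, beside 1.82%. The 5 were MYCTH_85556, with a gap between the classes of 16.3-fold, MYCTH_92668 (6.80-fold), MYCTH_79765 (3.56-fold), MYCTH_103537 (3.47-fold) and MYCTH_111088 (2.17-fold). The gap was 1.86-fold for cbdA, 1.39-fold for MYCTH_80312 and 1.37-fold for MYCTH_100518. The calls nearest to the threshold depended on the scaling. The gap of cbdA was 2.46-fold with library medians made equal, 2.06-fold with upper-quartile scaling and 2.56-fold with the trend with gene length removed, and that of MYCTH_111088 was 1.82-fold with the trend with expression level removed. Without any fold threshold, both cereal values exceeded both dicot values in 8 of the 9 genes, beside 20% of the tested genes, and both dicot values exceeded both cereal values in 0, beside 27.7%. The rule is easier to meet with fewer libraries. Without canola 8 of the 9 genes met it, beside 3.39% of the tested genes, and without flax 6, beside 1.6%. Without triticale 7 met it, beside 1.74%, and without oat 5, beside 1.43%.

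A fit with limma on log2(FPKM + 1), with the straw as the unit, gave the same direction for all 9 genes. Its p-values therefore take the difference between straws of one class as the error, since no replicate culture was there to measure it. For MYCTH_85556 the cereal level exceeded the dicot level by 4.19 ± 0.29 (SE) on the log2 scale (limma adjusted p = 0.00127). It was 3.41 ± 0.41 for MYCTH_92668 (limma adjusted p = 0.00985). MYCTH_79765 (2.48 ± 0.37, limma adjusted p = 0.0241) and MYCTH_103537 (1.96 ± 0.25, limma adjusted p = 0.0139) passed as well. These 4 of 9 genes stand beside 0.547% of the tested genes called higher on cereals and 0.122% called higher on dicots. The other 5 did not pass over all genes. Their log2 ratios were 1.82 ± 0.41 for cbdA (limma adjusted p = 0.12), 1.78 ± 0.52 for MYCTH_80312 (0.222), 1.48 ± 0.30 for MYCTH_111088 (0.0889), 0.79 ± 0.29 for MYCTH_100518 (0.319) and 0.61 ± 0.41 for MYCTH_46583 (0.553). With no filter on low values limma called 0 of the 9 genes and 0 of all 9110 models, while 7 of the 9 and 849 of all models had an unadjusted p under 0.05. It called 7 of the 9 with library medians made equal, beside 5.18% of all tested genes, and 7 with the trend with gene length removed, beside 3.28%. Without its mean-variance trend it called 1, MYCTH_85556, beside 0.207%.

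The median of the 9 log2 ratios was 1.82, beside -0.11 over all tested genes. MYCTH_85556 had the 8th highest ratio of the 8230 tested genes, MYCTH_92668 the 19th and MYCTH_79765 the 34th. MYCTH_46583, the lowest of the 9, was at rank 556. With 1 library left out, the ratio of MYCTH_85556 stayed between 4.04 and 4.35 and that of MYCTH_103537 between 1.87 and 2.06. The ratio of MYCTH_92668 ranged from 2.80 without flax to 4.03 without canola, and that of MYCTH_79765 from 1.92 without canola to 3.04 without flax. That of cbdA ranged from 1.24 without flax to 2.40 without canola. That of MYCTH_80312 ranged from 0.95 without flax to 2.60 without canola. The ratio of MYCTH_46583 was 1.27 without canola and -0.052 without flax, so its direction between the classes rested on the flax library.

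**Figure D3:**
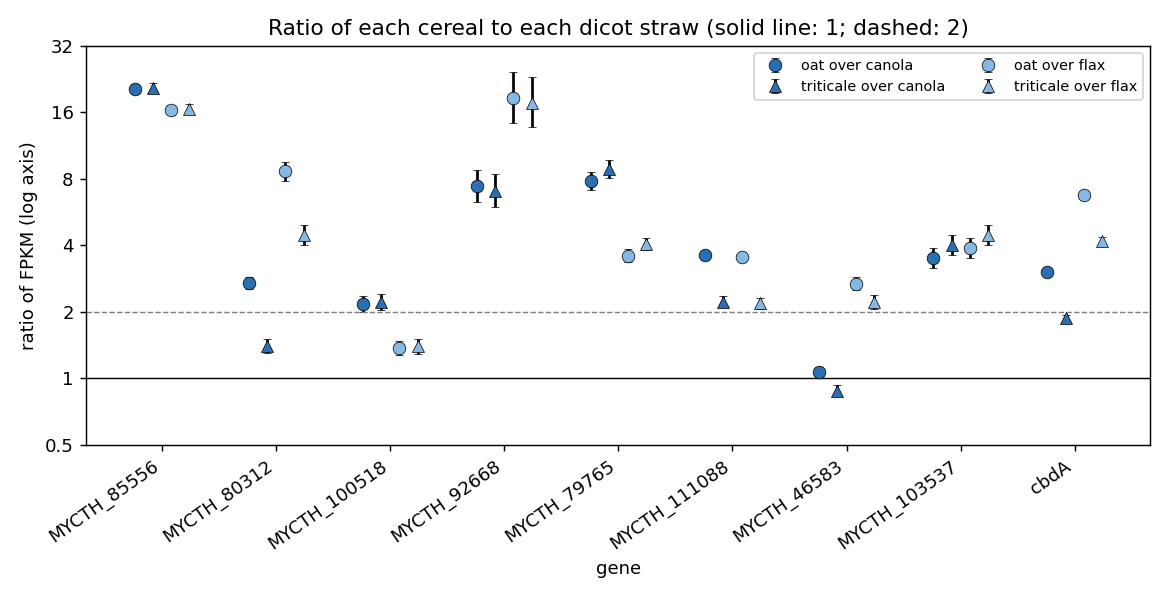
FPKM ratio, on a log axis, of each cereal library to each dicot library for the 9 genes; bars are exact 95% Clopper-Pearson intervals for counting error, the solid line is 1 and the dashed line 2. All 4 ratios lie above 16 for MYCTH_85556, while those of MYCTH_46583 to canola are 1.06 and 0.876.

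Canola and flax were each set against the cereals to separate the dicot straws. The comparisons share both cereal libraries. At the common time of 24 h, both cereals were at least 2-fold above flax in 8 of the 9 genes, beside 3.39% of the tested genes, and the reverse held for 0, beside 4.48%. With the trend with expression level removed, MYCTH_111088 (1.82-fold) and MYCTH_46583 (1.83-fold) no longer met the rule. MYCTH_100518 was the exception, at 1.37 times its flax level on oat (exact Clopper-Pearson interval 1.27 to 1.47) and 1.39 times on triticale (1.29 to 1.50). Against canola, 6 of the 9 genes met the rule, beside 1.6% of the tested genes, and the reverse held for 0, beside 6.31%. The genes that did not meet it were cbdA, MYCTH_80312 and MYCTH_46583. MYCTH_46583 was 1.06 times as high on oat as on canola (1.01 to 1.12) and 0.876 times as high on triticale (0.827 to 0.927).

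MYCTH_85556 and MYCTH_92668 had similar ratios of FPKM to flax and different ones to canola. MYCTH_85556 was 16.4 times as high on oat as on flax (exact Clopper-Pearson interval 15.6 to 17.2) and 20.4 times as high as on canola (19.4 to 21.5). MYCTH_92668 was 18.5 times as high on oat as on flax (14.3 to 24.3) and 7.40 times as high as on canola (6.26 to 8.80). With triticale in place of oat the ratios to flax and to canola were 16.6 and 20.7 for MYCTH_85556 and 17.7 and 7.07 for MYCTH_92668. The flax level of MYCTH_92668 rests on 63 reads. With a pseudocount of 10 the gap between flax and the lower cereal was 15.7-fold for MYCTH_85556 and 8.69-fold for MYCTH_92668. That pseudocount is larger than the flax level of MYCTH_92668 (8.57 FPKM). The likeness was seen in the FPKM ratios, which use no pseudocount, and not on that scale.

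Between the dicot straws the 9 genes split. At 24 h on flax and 30 h on canola, 4 of the 9 genes were at least 2-fold higher on canola, beside 7.91% of the tested genes, and 1 was at least 2-fold higher on flax, beside 3.48%. The genes higher on canola were MYCTH_80312, at 3.19 times its flax level (2.87 to 3.56), MYCTH_46583, at 2.52 times (2.35 to 2.70), MYCTH_92668, at 2.50 times (1.86 to 3.40), and cbdA, at 2.24 times (2.15 to 2.34). With a pseudocount of 10 the ratio of MYCTH_92668 was 1.69. The 4 genes higher on canola also met the rule of both cereals above flax. It follows from these calls that they were at least 2-fold lower on flax than on every other straw, beside 1.85% of the tested genes.

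In the other direction, MYCTH_79765 on flax was at 2.19 times its canola level (1.97 to 2.43). This gene also met the rule of both cereals above canola. It follows that it was at least 2-fold lower on canola than on every other straw, beside 0.219% of the tested genes. MYCTH_100518 was 1.59 times as high on flax (1.46 to 1.74) and MYCTH_85556 1.24 times (1.16 to 1.33), both beyond counting error. No difference between the dicot straws was detectable at this depth for MYCTH_111088 (0.980 times the flax level, 0.922 to 1.04) and MYCTH_103537 (1.11 times, 0.972 to 1.26). With 1 library per straw, none of these differences could be set against the spread between cultures.

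Between the cereal straws none of the 9 genes was 2-fold apart between oat and triticale, beside 14.2% of the tested genes at least 2-fold higher on oat and 0.352% higher on triticale. MYCTH_80312 came nearest, at 1.94 times its triticale level on oat (exact Clopper-Pearson interval 1.83 to 2.06). MYCTH_111088 was at 1.62 times (1.55 to 1.68), as was cbdA (1.58 to 1.66), and MYCTH_46583 at 1.21 times (1.14 to 1.28). MYCTH_79765 and MYCTH_103537 were lower on oat, at 0.884 times (0.845 to 0.925) and 0.874 times (0.815 to 0.937). The ratios of MYCTH_85556, MYCTH_100518 and MYCTH_92668 lay within counting error of 1.

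The ratio of oat to triticale moved with gene length over all tested genes, and the 3 longest of the 9 genes were the 3 with the highest ratio. The median log2 difference of oat minus triticale was -0.13 for the shortest 2061 tested genes (150 to 1232 bases). It was 0.17 from 1233 to 1797 bases, 0.31 from 1798 to 2498 bases and 0.42 for longer genes. The 6 members of up to 1232 bases had differences of -0.19 to 0.28. The 3 longest members, MYCTH_80312 (1567 bases), MYCTH_111088 (1613 bases) and cbdA (3191 bases), had 0.95, 0.69 and 0.69, which do not rise with length among themselves. With the trend with length removed from each library these became 0.70, 0.43 and 0.25, so all 3 remained higher on oat and the difference of cbdA was the most reduced. With library medians made equal, which raised triticale by 0.28 and lowered the others by 0.07 to 0.12 on the log2 scale, the difference of MYCTH_46583 turned to -0.081. Those of MYCTH_80312, MYCTH_111088 and cbdA were then 0.60, 0.34 and 0.34. MYCTH_85556 (-0.38), MYCTH_100518 (-0.38) and MYCTH_92668 (-0.29), which lay within counting error of equality as deposited, were then lower on oat, beside a median of -0.17 over all tested genes. With the trend with expression level removed instead, they were at 0.27, 0.12 and -0.014, so their direction depends on the setting.

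**Figure D4:**
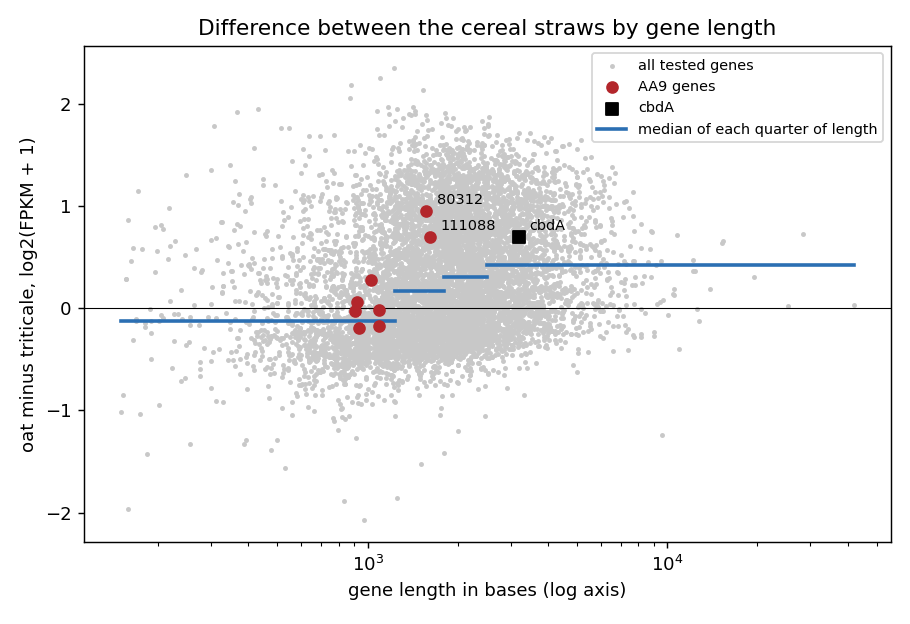
Difference of oat minus triticale in log2(FPKM + 1) against gene length on a log axis. Grey points are all 8230 tested genes, red circles the 8 AA9 genes and the black square cbdA. Blue lines are the medians of 4 length classes of nearly equal size. The medians go from -0.13 in the shortest class to 0.42 in the longest, and the 3 longest members are the 3 highest of the 9.

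Seen over both pairs of straws, the 9 genes fell into different corners. MYCTH_80312 and cbdA were higher on oat than on triticale and higher on canola than on flax. MYCTH_79765 was lower on oat and lower on canola. MYCTH_111088 differed between the cereals and not detectably between the dicots, while MYCTH_92668 showed the reverse.

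**Figure D5:**
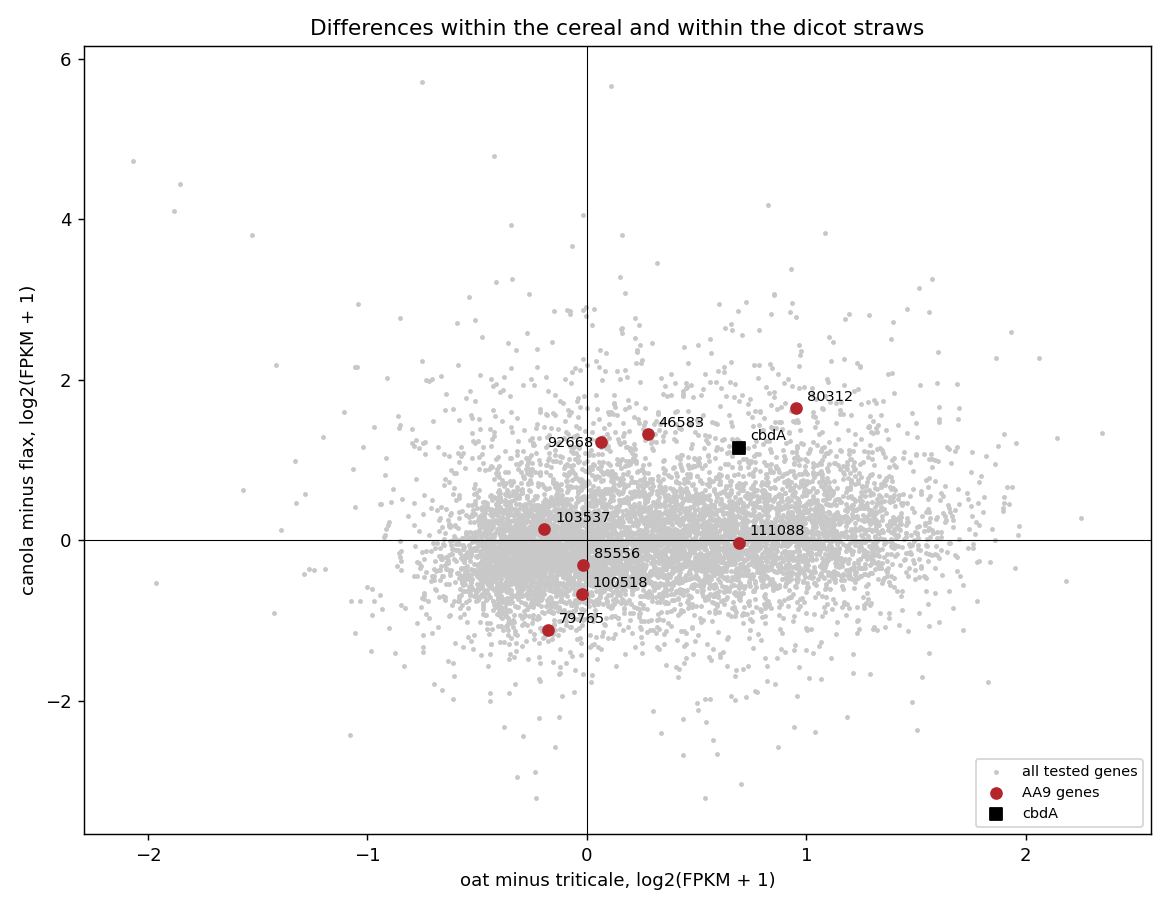
Difference of canola minus flax against oat minus triticale, both in log2(FPKM + 1); grey points are all 8230 tested genes, red circles the 8 AA9 genes and the black square cbdA. The members range from -1.12 (MYCTH_79765) to 1.65 (MYCTH_80312) between the dicots and from -0.19 to 0.95 between the cereals.

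The closeness of other genes to the profile of cbdA was ranked by the Euclidean distance between log2(FPKM + 1) profiles over the 4 libraries, each centred on its own mean, among 6005 other genes with a mean of at least 10 FPKM. The nearest were MYCTH_84047 (distance 0.276), MYCTH_109566 (0.329), the AA9 gene MYCTH_80312 (0.394), MYCTH_104628 (0.399) and MYCTH_10713 (0.404). MYCTH_109566 was an abundant transcript, with 2567 and 1323 FPKM on oat and triticale and 896 and 434 on canola and flax. The other AA9 genes followed at rank 38 for MYCTH_111088, 48 for MYCTH_103537, 116 for MYCTH_46583, 576 for MYCTH_92668, 781 for MYCTH_100518 and 1227 for MYCTH_79765. MYCTH_85556 was far down the list, at rank 4729, with a log2 ratio of cereal to dicot of 4.19 against 1.82 for cbdA. Ranks over 4 libraries describe these libraries only. The trend of oat against triticale with gene length was left in these profiles. Its removal lowered the log2 difference of oat minus triticale for cbdA from 0.69 to 0.25.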

How the data were processed

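The authors deposited 1 table of FPKM values and gene lengths for 9110 gene models. The sources used here name no aligner, counting tool, build or annotation. Per the labels' protocols, Trizol RNA and an Illumina mRNA-Seq kit were used. The kit is not described as stranded. For each library the products of FPKM and length (in units of 1000 bases) added up to 1000000, and 100% of values were within 0.001 of a whole multiple of the smallest, so reads were recovered. PCR copies are not independent molecules, so intervals cover counting error only.

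Gene numbers were matched to RefSeq locus tags (assembly ASM22609v1). All 9 members matched, with the same length as the RefSeq span, introns included, and no span overlapped another gene. No positions are given, because the values name no build. How reads shared between related AA9 genes were assigned is not given. No protein or genome sequence was used, so the planned search for similar proteins and protein features was not run.

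Tests used 8230 models, those averaging 1 FPKM or more, and left out 880. Limma 3.58.1 (R 4.3.3; trend, two-sided, Benjamini-Hochberg over all tested genes, threshold 0.05) used log2(FPKM + 1), which compresses the changes of weakly expressed genes. The named genes are all 9 members, the 5 nearest to the profile of cbdA, and the 2 neighbours in gene order that met the 2-fold rule. The comparison of neighbouring genes was not among the planned comparisons. The members and lists were chosen with earlier results of these data known. Alternatives were pseudocounts of 0.1 and 10, filters at 10 FPKM or none, equal library medians, upper-quartile scaling, no mean-variance trend, and each library left out. Removal of trends with gene length or expression level (lowess) was added after seeing the data.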

Additional observations from a re-analysis of the deposited data

How the results depend on the processing

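Of 90 cereal to dicot log2 ratios of single genes under alternatives that can alter the ratio, 89 kept the sign of the reported value. The exception was MYCTH_46583 without the flax library, at -0.052. Between oat and triticale, 1 value beyond counting error turned sign, that of MYCTH_46583 with equal library medians, at -0.081, and between canola and flax and between the cereals and flax 0 did. The count of 5 genes at least 2-fold higher on cereal straws ranged from 5 to 8 with 1 library left out (8 without canola); the rule is easier to meet with fewer libraries, so these counts cannot drop below 5. The cereal to dicot ratio of MYCTH_46583 ranged from -0.052 to 1.27 over these. Limma called 4 of the 9 genes, 7 with equal library medians, 7 with the trend with gene length removed, 1 without the mean-variance trend and 0 with no filter on low values, where it called 0 of 9110 models and 7 members had an unadjusted p under 0.05. With upper-quartile scaling it called 6. Over all tested genes its calls higher on cereals and on dicots were 45 and 10 as reported, 70 and 50 with upper-quartile scaling, 151 and 275 with equal medians, 109 and 161 with the length trend removed and 16 and 1 without the mean-variance trend. The cause of these shifts was not tested. With the trend with expression level removed, 1 of the 9 genes, MYCTH_80312, and not 0, was 2-fold apart between oat and triticale. Before that removal, 14.2% of all tested genes were at least 2-fold higher on oat and 0.352% on triticale. The share with the trend removed was not computed, so this count has no background beside it. The search for similar proteins and its alternatives were not run, for want of a protein table. Limma was not run with a library left out, since 1 straw would then stand for its class. No paired analysis was possible because each straw has 1 library and the labels give no replicate numbers. Depth limits MYCTH_92668 most among the 9, with 63 reads on flax, and the spread between cultures is unknown.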

Other observations

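Among the 18 genes that lie next to a member in RefSeq gene order, 15 were tested. Of these, 2 were at least 2-fold higher on both cereal straws than on both dicot straws, beside 1.09% of all tested genes, and both flank MYCTH_85556, the AA9 gene with the largest step. MYCTH_58125 had 12.4 and 12.0 FPKM on oat and triticale and 3.20 and 4.21 on canola and flax, a 2.50-fold gap of FPKM + 1. MYCTH_2311323 had 7.10, 5.27, 0.900 and 0.555 FPKM on the same straws, a gap of 3.30-fold, from 94, 62, 13 and 8 reads. Both are far below MYCTH_85556 in level, and their spans in RefSeq do not overlap it. No members lie next to each other, and the nearest pair, MYCTH_100518 and MYCTH_92668, is 24 places apart in gene order.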
